A study of Mus musculus and Homo sapiens with 65 samples.

Results

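The genes described here are 40 regulators of the cell division cycle: cyclins, cyclin-dependent kinases (CDKs), the phosphatases, kinases and inhibitors that set CDK activity, the activators of the anaphase-promoting complex (APC/C), Polo and Aurora kinases, spindle checkpoint genes and the meiotic kinase Mos. They were picked by gene symbol, and all 40 were found among the 32287 genes of the expression tables. The study measured histone marks, DNA methylation and RNA in mouse oocytes and embryos, and 9 of its RNA-seq libraries, all of late 2-cell embryos, carry these values. There were 2 libraries of embryos given alpha-amanitin, an inhibitor of RNA polymerase II. Another 2 came from embryos given morpholinos against both Kdm5a and Kdm5b, which encode demethylases of histone H3 lysine 4, and 2 from embryos that received mismatch control morpholinos. The last 3 came from wild-type embryos. The morpholinos carried a fluorescein tag and went into zygotes at 0.5 days after conception, and embryos were then cultured to the late 2-cell stage. The dose, timing and route of alpha-amanitin, the strain and the number of embryos per library are not stated in the sources used. Nor do the labels say that replicates were separate collections, so p-values reflect the spread of these libraries alone.

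A CDK is active only when bound to a cyclin, and different cyclins serve different steps: D and E cyclins at entry into S phase, A and B cyclins in S phase and mitosis. Wee1-family kinases hold Cdk1 inactive by phosphorylation, Cdc25 phosphatases remove that phosphate, and the APC/C with Cdc20 or Fzr1 (Cdh1) marks cyclin B and other proteins for destruction. A mouse oocyte stores many of these RNAs for meiosis and for the first division, and much of this store is degraded by the 2-cell stage, when the embryo's own genome begins broad transcription. RNA of a gene that stays high under alpha-amanitin can therefore be of maternal origin, while RNA that depends on new transcription is low.

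Levels are FPKM, in which fragments are divided by transcript length and by library size, so each is relative to the rest of the same library. Between 7935 and 7977 genes reached 1 FPKM in the alpha-amanitin libraries, against 10611 to 11228 in the other libraries. Read counts are not in these tables, so depth is unknown. The median half-width of the deposited FPKM bounds was 21.5% and 24.4% of the FPKM with alpha-amanitin, 11.9% to 14.8% in injected embryos and 18.7% to 19.4% in wild type. Within groups, libraries correlated at 0.846 to 0.902 across genes, and alpha-amanitin libraries with the others at 0.61 to 0.689. Libraries from different groups without the inhibitor correlated at 0.854 to 0.926. All 6 oocyte and embryo markers (Zp3, Gdf9, Bmp15, Nlrp5, Zfp352 and Tdpoz1) were at 1 FPKM or more in at least 1 library. Their summed level was 578 to 647 FPKM with alpha-amanitin, 447 to 463 with Kdm5a+b morpholinos, 432 to 484 with mismatch controls and 371 to 477 in wild type. Bmp15 alone reached 487 FPKM at its highest, so the sum does not show how the other markers behaved. Of markers of other cells an embryo collection can carry, 1 of 7 cumulus, 2 of 6 blood, 2 of 4 oviduct and 2 of 6 sperm genes reached 1 FPKM in any library, none above 7.83 FPKM. Hbb-bs, Hbb-bt, Foxl2 and Prm1 were listed at 0 in all 9. Kdm5a and Kdm5b RNA cannot check the morpholino labels, since morpholinos may act on translation. Kdm5a was at 19.5 and 15.3 FPKM with Kdm5a+b morpholinos, against 12.8 and 9.44 FPKM with mismatch controls, and Kdm5b was at 38.1 and 27.6 FPKM with Kdm5a+b morpholinos, against 55.3 and 39.6 FPKM with mismatch controls.

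Promoter sequences of 4 genes are given with 2 short elements known from cultured cells to place many mitotic genes under cell-cycle control. One is the CHR element, searched here only as TTTGAA, and the other is the CCAAT box. Other spellings of the CHR element were not searched. Cdk1 (chr10:69352883-69353162, minus strand), Cdc20 (chr4:118437314-118437593, minus strand) and Ccnf (chr17:24251380-24251659, minus strand) are shown as genes whose RNA was low with alpha-amanitin and whose windows hold both elements. Wee2 (chr6:40442613-40442892, plus strand) is shown as the gene whose RNA was high. They were picked with these matches in view, and Aurka, Ccne1, Cdk2, Cdkn2c and Plk1, whose RNA was also low, have windows without TTTGAA. Each runs 5′ to 3′ on the gene's strand, from 250 bases before the RefSeq start, with 30 bases from the start on (GRCm38.p6, mm10). Capitals mark both elements, on either strand.
Cdk1: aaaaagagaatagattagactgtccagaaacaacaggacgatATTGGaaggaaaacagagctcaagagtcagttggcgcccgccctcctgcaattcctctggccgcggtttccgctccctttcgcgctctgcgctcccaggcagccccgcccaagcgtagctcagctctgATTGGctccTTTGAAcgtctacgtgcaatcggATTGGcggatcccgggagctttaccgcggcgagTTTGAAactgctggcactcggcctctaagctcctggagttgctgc
Cdc20: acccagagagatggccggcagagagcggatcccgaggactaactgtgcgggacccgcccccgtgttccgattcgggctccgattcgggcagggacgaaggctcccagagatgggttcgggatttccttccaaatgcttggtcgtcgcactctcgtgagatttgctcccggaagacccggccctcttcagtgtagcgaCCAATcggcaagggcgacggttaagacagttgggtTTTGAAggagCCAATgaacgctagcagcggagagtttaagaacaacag
Ccnf: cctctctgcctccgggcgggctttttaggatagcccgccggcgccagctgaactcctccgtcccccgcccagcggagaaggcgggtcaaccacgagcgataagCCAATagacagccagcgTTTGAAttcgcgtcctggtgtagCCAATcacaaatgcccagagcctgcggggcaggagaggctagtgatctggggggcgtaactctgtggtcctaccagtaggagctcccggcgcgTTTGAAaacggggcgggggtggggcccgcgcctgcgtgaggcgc
Wee2: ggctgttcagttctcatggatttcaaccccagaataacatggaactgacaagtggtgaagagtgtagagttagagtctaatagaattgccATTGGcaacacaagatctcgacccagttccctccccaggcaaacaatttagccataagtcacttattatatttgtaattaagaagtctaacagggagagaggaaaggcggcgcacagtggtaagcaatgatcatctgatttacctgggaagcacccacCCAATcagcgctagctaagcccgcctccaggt
Cdk1 and Ccnf each held 2 CHR elements and Cdc20 held 1, the nearest of them 15, 14 and 18 bases before the start. The Wee2 window held 2 CCAAT boxes and no TTTGAA.

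A promoter window was present for 29 of the 40 genes. On either strand, TTTGAA was found in 6 of the 29 (20.7%), against 19.5% of the windows of 27025 genes, and CCAAT in 22 (75.9%), against 39.7%. Both together were found in 6 (20.7%: Bub3, Ccnb2, Ccnf, Cdc20, Cdk1 and Cks1b), against 8.33% of genes. An E2F site, spelled TTTCCCGC or TTTGGCGC, stood in the windows of Cdc25a and Cdk2 (6.90%), against 1.68% of genes. Of the 9 genes with a window whose RNA fell with alpha-amanitin, 4 held TTTGAA and 8 held CCAAT. Of the 20 others with a window, which were not called, not tested or called higher, 2 held TTTGAA and 14 held CCAAT. These matches describe letters in a window and were not tested against expression.

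With alpha-amanitin, many of these genes were at a small part of their wild-type level and a few were above it. The genes that fell were the mitotic kinases Aurka, Aurkb and Plk1, the kinases Cdk1 and Cdk2, cyclins A2, D1, E1 and F, Cdc20, Cdc25c, Wee1, Bub3 and the CDK inhibitors Cdkn1c and Cdkn2c. Wee2, the oocyte form of Wee1, and Plk4, the kinase of centriole duplication, rose. The test was limma on log2(FPKM + 1) over 13137 genes with 1 FPKM or more in at least 2 libraries, with calls made under a Benjamini-Hochberg adjusted p of 0.05, and log2 changes on this scale understate the change of low genes. Of the 40 genes 36 passed that filter, 15 were called lower and 2 higher, and 19 were not called. Over all genes tested, 25.1% were called lower and 4.31% higher. The median log2 change was -0.88 over the 36 genes and -0.56 over all genes tested. Ccna1, Ccnd2, Aurkc and Mos did not pass the filter. The number of these 40 genes with a mean of 10 FPKM or more was 10 with alpha-amanitin and 23 in wild type. This count was not made over all genes, fewer of which reached 1 FPKM with alpha-amanitin, as given above. In libraries of whole embryos, fewer cells holding an RNA and less RNA per cell cannot be told apart.

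**Figure D1:**
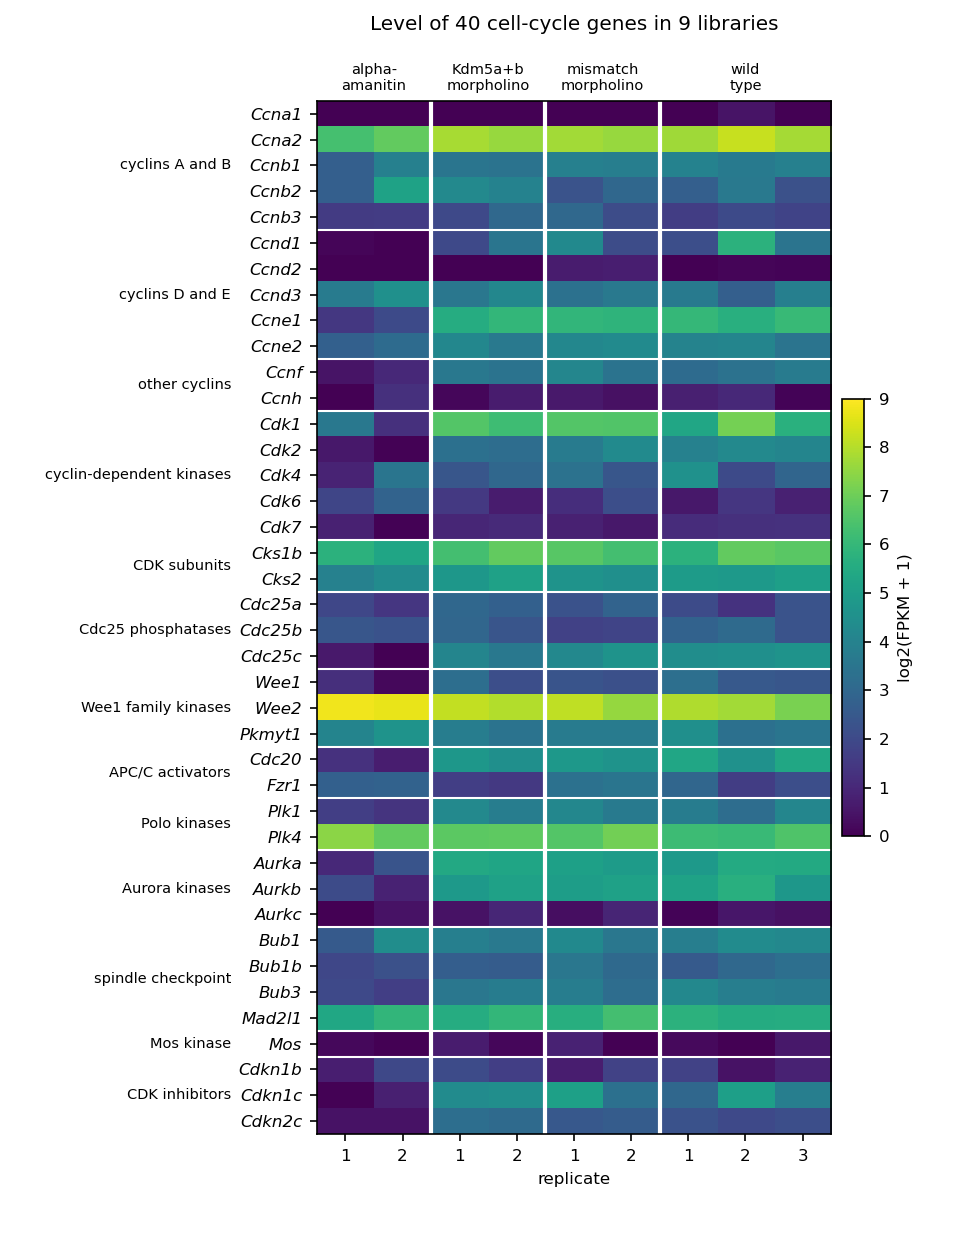
Level of each of the 40 genes as log2(FPKM + 1) (colour) in each of the 9 libraries (columns, by group and replicate), with the genes in rows by role. The rows of Ccne1, Cdc25c, Cdc20, Aurka and Aurkb are dark in both alpha-amanitin columns and bright in the other 7, and Wee2 is brightest with alpha-amanitin.

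Among the A-type cyclins, Ccna2, the form that dividing somatic cells use in S phase and at mitotic entry, was abundant in every library. Its level was 79.8 and 113 FPKM with alpha-amanitin, 223 and 193 with Kdm5a+b morpholinos, 212 and 196 with mismatch controls, and 209, 300 and 219 in wild type. Both alpha-amanitin libraries lay below the other 7, yet Ccna2 was still among their more abundant regulators. The means were 96.2 ± 23.1 FPKM with alpha-amanitin and 243 ± 50.1 FPKM in wild type (SD, n = 2 and n = 3), a log2 change of -1.33 (SE 0.23, limma adjusted p = 0.00168). Ccna1, the germ-cell A cyclin, was listed at 0 in 7 libraries and reached 0.0176 FPKM in alpha-amanitin replicate 2 and 0.383 FPKM in wild-type replicate 2.

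Ccnb1 and Ccnb2, the B cyclins that activate Cdk1 at mitosis, gave less clear values. Ccnb1 was at 5.55 and 14.1 FPKM with alpha-amanitin, 10.3 and 9.85 with Kdm5a+b morpholinos, 14.2 and 13.3 with mismatch controls, and 15.0, 11.7 and 14.2 in wild type. The alpha-amanitin replicates disagreed with each other and the second lay inside the wild-type range (log2 change -0.55, SE 0.40, limma adjusted p = 0.331). The Ccnb1 row is uncertain because near-identical copies exist. The annotated copy Gm5593 matches its transcript at 99.2% over 1287 bases, and Gm12856 at 98.1% over 1294 bases. Gm5593 was at 5.39 and 12.04 FPKM with alpha-amanitin, 39.7 and 31.7 with Kdm5a+b morpholinos, 40.9 and 39.3 with mismatch controls, and 59.3, 47.8 and 48.6 in wild type. In wild type this copy had a higher listed level than Ccnb1 itself. How fragments were divided between the rows is not stated in the sources used. The sum of Ccnb1, Gm5593 and Gm12856 was 13.6 and 34.1 FPKM with alpha-amanitin, 71.5 and 59.9 with Kdm5a+b morpholinos, 78.7 and 72.0 with mismatch controls, and 102, 82.9 and 84.3 in wild type. With this sum in place of the separate rows, an alternative chosen after seeing the data, the log2 change was -1.996 (SE 0.34, limma adjusted p = 0.00148), and the groups did not overlap. Each row's FPKM is divided by its own length, and the copies match only part of the transcript. Such sums, here and below, are therefore not exact levels of a gene with its copies. Which of the rows the embryo transcribes cannot be told apart from these tables.

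**Figure D2:**
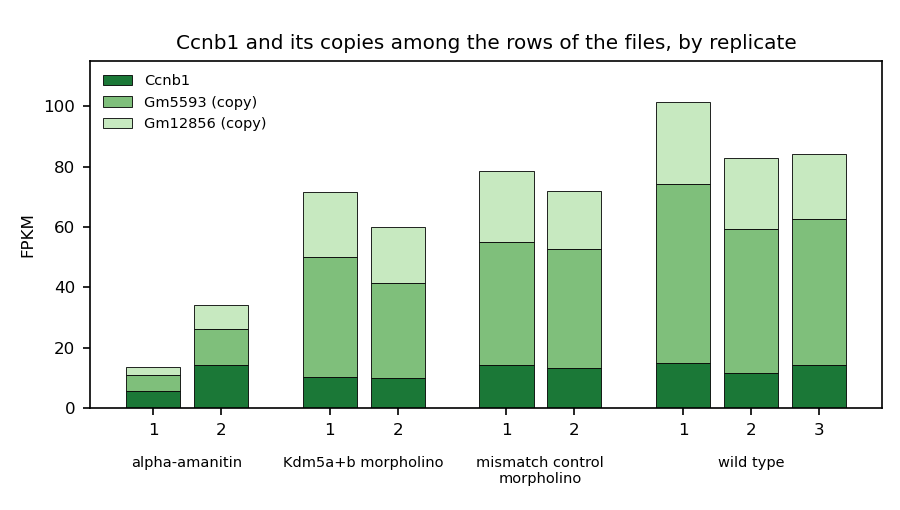
FPKM (vertical axis) of Ccnb1, of its copies Gm5593 and Gm12856, and of their sum in each of the 9 libraries, by group and replicate. The Ccnb1 row lies between 5.55 and 15.0 FPKM in all 9 libraries, while the sum lies at 13.6 and 34.1 FPKM with alpha-amanitin, below the 59.9 to 102 FPKM of the other 7 libraries.

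Ccnb2 was at 5.56 and 35.4 FPKM with alpha-amanitin, 17.7 and 14.9 with Kdm5a+b morpholinos, 3.99 and 7.02 with mismatch controls, and 5.61, 11.6 and 3.70 in wild type. Its alpha-amanitin replicates disagreed more than those of any other group (log2 change 1.08, SE 0.67, limma adjusted p = 0.257), and the sign rests on replicate 2: without it the log2 change was -0.16, and without replicate 1 it was 2.32 (limma adjusted p = 0.0192). Ccnb3, a cyclin required for anaphase in meiosis I of mouse oocytes, was at 1.98 and 2.07 FPKM with alpha-amanitin, 2.92 and 7.25 with Kdm5a+b morpholinos, 7.24 and 3.29 with mismatch controls, and 2.07, 3.07 and 2.54 in wild type. It was low in all groups, and its change with alpha-amanitin was -0.23 on the log2 scale (SE 0.50).

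The E cyclins, partners of Cdk2 at the start of S phase, differed from each other. Ccne1 was at 1.75 and 3.04 FPKM with alpha-amanitin, 46.4 and 61.0 with Kdm5a+b morpholinos, 59.8 and 56.9 with mismatch controls, and 62.9, 49.6 and 65.7 in wild type. All 7 libraries without the inhibitor lay far above both with it, a 24.8-fold lower mean (2.40 ± 0.919 FPKM with alpha-amanitin and 59.4 ± 8.62 FPKM in wild type, SD) and a log2 change of -4.17 (SE 0.30, limma adjusted p = 6.26e-06). Ccne2 was at 5.71 and 7.77 FPKM with alpha-amanitin, 16.8 and 11.5 with Kdm5a+b morpholinos, 17.0 and 19.0 with mismatch controls, and 15.1, 16.0 and 10.1 in wild type. Its groups did not overlap, but the log2 change of -0.92 (SE 0.36) missed the threshold (limma adjusted p = 0.0781), and in 4 libraries its FPKM lay above its own deposited upper bound. Ccne1 made up 23.4% and 28.1% of the summed E-cyclin FPKM with alpha-amanitin, against 80.6%, 75.6% and 86.6% in wild type. The exact two-sided permutation test gave p = 0.1, the smallest that 2 libraries against 3 allow.

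The D cyclins are the partners of Cdk4 and Cdk6 in G1. Ccnd1 was at 0.0817 FPKM and listed at 0 with alpha-amanitin, at 3.00 and 10.4 FPKM with Kdm5a+b morpholinos, 18.1 and 3.28 with mismatch controls, and 3.45, 54.0 and 10.1 in wild type. It varied widely among the libraries without the inhibitor, but all 7 lay above both alpha-amanitin libraries (log2 change -3.75, SE 0.98, limma adjusted p = 0.0150). The call ended without alpha-amanitin replicate 1 (adjusted p = 0.0559) or replicate 2 (0.0653) and with no filter on low values (0.167), and without wild-type replicate 2 the log2 change was -2.76. Ccnd3 was at 12.3 and 21.7 FPKM with alpha-amanitin, 10.98 and 17.0 with Kdm5a+b morpholinos, 9.35 and 11.6 with mismatch controls, and 11.9, 5.56 and 13.7 in wild type. Its ranges with and without the inhibitor overlapped (log2 change 0.69, SE 0.44, limma adjusted p = 0.268). Summed with its copy Ccnd3-ps, which matches at 96.3% over 881 bases, Ccnd3 had a log2 change of 0.37 (SE 0.48). Ccnd2 was below 1 FPKM everywhere, with 0.608 and 0.693 FPKM in the mismatch controls and at most 0.0795 FPKM in any other library.

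Ccnf, an F-box protein and cyclin that takes part in protein destruction in place of binding a CDK, was at 0.383 and 1.04 FPKM with alpha-amanitin, 11.3 and 9.66 with Kdm5a+b morpholinos, 16.4 and 9.78 with mismatch controls, and 7.85, 9.44 and 12.4 in wild type. The groups with and without the inhibitor did not overlap (log2 change -2.67, SE 0.42, limma adjusted p = 0.00078). Ccnh and Cdk7 form, with Mnat1, the kinase that activates CDKs. Ccnh stayed at or below 1.35 FPKM and Cdk7 at or below 1.46 FPKM in all 9 libraries, and neither was called.

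Cdk1, the mitotic CDK, was at 11.1 and 1.40 FPKM with alpha-amanitin, 96.3 and 72.0 with Kdm5a+b morpholinos, 95.6 and 93.04 with mismatch controls, and 39.4, 138 and 51.6 in wild type. Every library without the inhibitor lay above both with it (log2 change -3.63, SE 0.65, limma adjusted p = 0.00183). The size of the fall depends on which alpha-amanitin library is kept, with a log2 change of -4.80 without replicate 1 and -2.46 without replicate 2, and with no filter on low values the adjusted p was 0.0546. In 5 libraries the Cdk1 FPKM lay above its own deposited upper bound, so its level is less certain than the others.

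Cdk2, the S-phase CDK, was at 0.504 and 0.0393 FPKM with alpha-amanitin, 8.94 and 8.35 with Kdm5a+b morpholinos, 12.3 and 18.7 with mismatch controls, and 14.6, 18.1 and 16.1 in wild type. The libraries with the inhibitor lay below all others (log2 change -3.78, SE 0.38, limma adjusted p = 4.66e-05). Cdk4 ranged from 0.844 to 10.3 FPKM with alpha-amanitin and from 3.06 to 22.5 FPKM in wild type, with overlap. Cdk6, which like Cdk4 serves D cyclins, was at 2.66 and 6.30 FPKM with alpha-amanitin, against 0.477, 1.69 and 0.768 FPKM in wild type. Both alpha-amanitin libraries lay above all wild-type libraries, but the log2 change of 1.43 (SE 0.56) missed the threshold (limma adjusted p = 0.0788). The small CDK-binding subunits were not called either. Cks1b was at 54.6 and 38.5 FPKM with alpha-amanitin, against 53.7, 114 and 103 FPKM in wild type (log2 change -0.89, limma adjusted p = 0.0784). Cks2, which mouse oocytes need for the first meiotic anaphase, was at 14.4 and 19.3 FPKM with alpha-amanitin, against 29.5, 28.3 and 32.6 FPKM in wild type (log2 change -0.82, limma adjusted p = 0.0556). Its copy Gm15452, identical over 240 bases, was at 33.5 and 66.8 FPKM with alpha-amanitin, against 44.3, 35.3 and 38.7 FPKM in wild type, and with the copies summed the log2 change was -0.11.

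Paralogues differed among the enzymes that switch Cdk1 on and off. Cdc25c, a phosphatase that activates Cdk1 at mitotic entry, was at 0.528 and 0.0226 FPKM with alpha-amanitin, 16.3 and 11.1 with Kdm5a+b morpholinos, 17.6 and 23.8 with mismatch controls, and 20.2, 21.1 and 23.5 in wild type. The gap between the 2 libraries with the inhibitor and the other 7 was complete (log2 change -4.17, SE 0.37, limma adjusted p = 2.11e-05). Cdc25b, the family member that mouse oocytes need to resume meiosis, was at 4.37 and 3.82 FPKM with alpha-amanitin, 6.85 and 4.22 with Kdm5a+b morpholinos, 2.35 and 2.62 with mismatch controls, and 6.19, 7.55 and 3.99 in wild type (log2 change -0.41, SE 0.43). Cdc25a was at 2.80 and 1.71 FPKM with alpha-amanitin, 6.94 and 5.84 with Kdm5a+b morpholinos, 3.82 and 6.30 with mismatch controls, and 3.19, 1.47 and 3.93 in wild type (log2 change -0.21, SE 0.48). For both of these the alpha-amanitin and wild-type values overlapped. Cdc25c made up 6.86% and 0.407% of the summed Cdc25 FPKM with alpha-amanitin, against 68.3%, 70.1% and 74.8% in wild type (exact two-sided permutation p = 0.1, the smallest possible).

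Wee2, which keeps mouse oocytes arrested before meiosis resumes, was the most abundant of the 40 genes in 6 of the 9 libraries. Its level was 451 and 420 FPKM with alpha-amanitin, 289 and 251 with Kdm5a+b morpholinos, 280 and 190 with mismatch controls, and 240, 213 and 143 in wild type. Both alpha-amanitin libraries lay above the other 7. The means were 435 ± 21.8 FPKM with alpha-amanitin and 199 ± 49.9 FPKM in wild type (SD, n = 2 and n = 3), a log2 change of 1.16 (SE 0.25, limma adjusted p = 0.00597), which with no filter on low values had an adjusted p of 0.0791. FPKM is relative to the rest of the library, so no absolute amount can be read from it. With quantile normalization the log2 change was 0.76 and the call held. Wee1, the somatic form, was at 1.33 and 0.131 FPKM with alpha-amanitin, 8.42 and 3.47 with Kdm5a+b morpholinos, 4.11 and 3.60 with mismatch controls, and 8.65, 4.69 and 4.31 in wild type. It went the other way (log2 change -2.03, SE 0.53, limma adjusted p = 0.0157), a call that ended with no filter (adjusted p = 0.0685), with quantile normalization (0.214) and when alpha-amanitin replicate 2 was left out (0.133). Wee2 was 99.7% and 100.0% of the summed Wee1 and Wee2 FPKM with alpha-amanitin, against 96.5%, 97.8% and 97.1% in wild type. Pkmyt1 (Myt1), the membrane-bound kinase of the family, was at 15.7 and 23.4 FPKM with alpha-amanitin, against 21.2, 9.05 and 10.2 FPKM in wild type, with overlap.

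**Figure D3:**
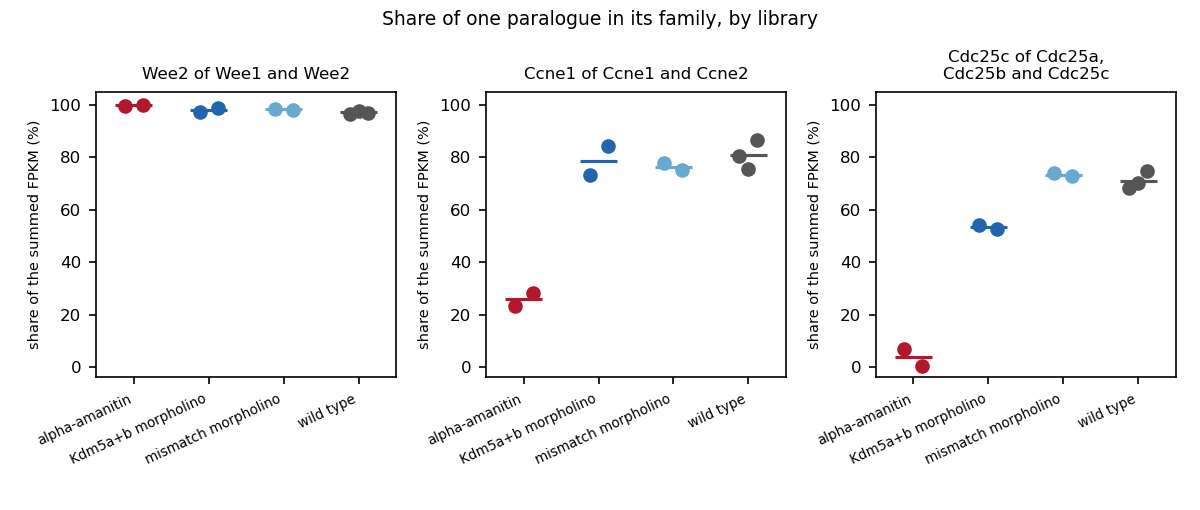
Share of one paralogue in the summed FPKM of its family (vertical axis, %) in each library (points) with the group mean (bar), for Wee2, Ccne1 and Cdc25c. Only the shares that reached the smallest possible permutation p are shown. With alpha-amanitin Ccne1 and Cdc25c make up at most 28.1% and 6.86% of their families, and at least 73.4% and 52.5% in the other 7 libraries, while Wee2 makes up 96.5% or more in all 9.

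Of the Aurora kinases, Aurka, which serves spindle assembly, was at 1.06 and 4.01 FPKM with alpha-amanitin, 42.6 and 38.2 with Kdm5a+b morpholinos, 33.8 and 29.9 with mismatch controls, and 28.5, 44.3 and 43.2 in wild type (log2 change -3.60, SE 0.40, limma adjusted p = 8.13e-05). Aurkb, the kinase of the chromosomal passenger complex, was at 3.18 and 0.796 FPKM with alpha-amanitin, 28.5 and 34.9 with Kdm5a+b morpholinos, 31.4 and 34.5 with mismatch controls, and 35.0, 49.97 and 26.1 in wild type (log2 change -3.75, SE 0.42, limma adjusted p = 8.08e-05). For both, the alpha-amanitin libraries were clearly below the other 7. The replicate kept moves the size: without alpha-amanitin replicates 1 and 2 in turn the log2 change of Aurka was -2.96 and -4.24, and that of Aurkb was -4.36 and -3.14. Aurkc, the germ-cell Aurora kinase, was listed at 0 and at 0.362 FPKM with alpha-amanitin, at 0.355 and 0.977 FPKM with Kdm5a+b morpholinos, at 0.272 and 0.903 FPKM with mismatch controls, and at 0.0522, 0.448 and 0.327 FPKM in wild type. Its row was under 1 FPKM in every library, but the copy Gm12463, which matches Aurkc at 99.2% over 849 bases, was listed higher in all 9. The sum of Aurkc and Gm12463 was 0.279 and 6.42 FPKM with alpha-amanitin, 3.81 and 1.96 with Kdm5a+b morpholinos, 2.14 and 2.04 with mismatch controls, and 3.43, 4.55 and 2.95 in wild type. The alpha-amanitin values of this sum lay on either side of the wild-type range (log2 change -0.58, SE 0.67, limma adjusted p = 0.548).

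The Polo kinases moved in opposite directions. Plk1, the mitotic Polo kinase, was at 2.16 and 1.54 FPKM with alpha-amanitin, 17.6 and 13.2 with Kdm5a+b morpholinos, 17.0 and 11.7 with mismatch controls, and 12.7, 8.41 and 16.6 in wild type, with no overlap (log2 change -2.21, SE 0.40, limma adjusted p = 0.00203). Plk4 was at 174 and 113 FPKM with alpha-amanitin, 106 and 109 with Kdm5a+b morpholinos, 95.7 and 134 with mismatch controls, and 71.9, 68.2 and 90.3 in wild type. The alpha-amanitin libraries lay above wild type but overlapped the injected embryos (log2 change 0.87, SE 0.26, limma adjusted p = 0.0295). The Plk4 call is fragile: it ended without alpha-amanitin replicate 1 (adjusted p = 0.228), without wild-type replicate 1 (0.0643) or replicate 2 (0.0651), and under 4 changes of the fit.

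**Figure D4:**
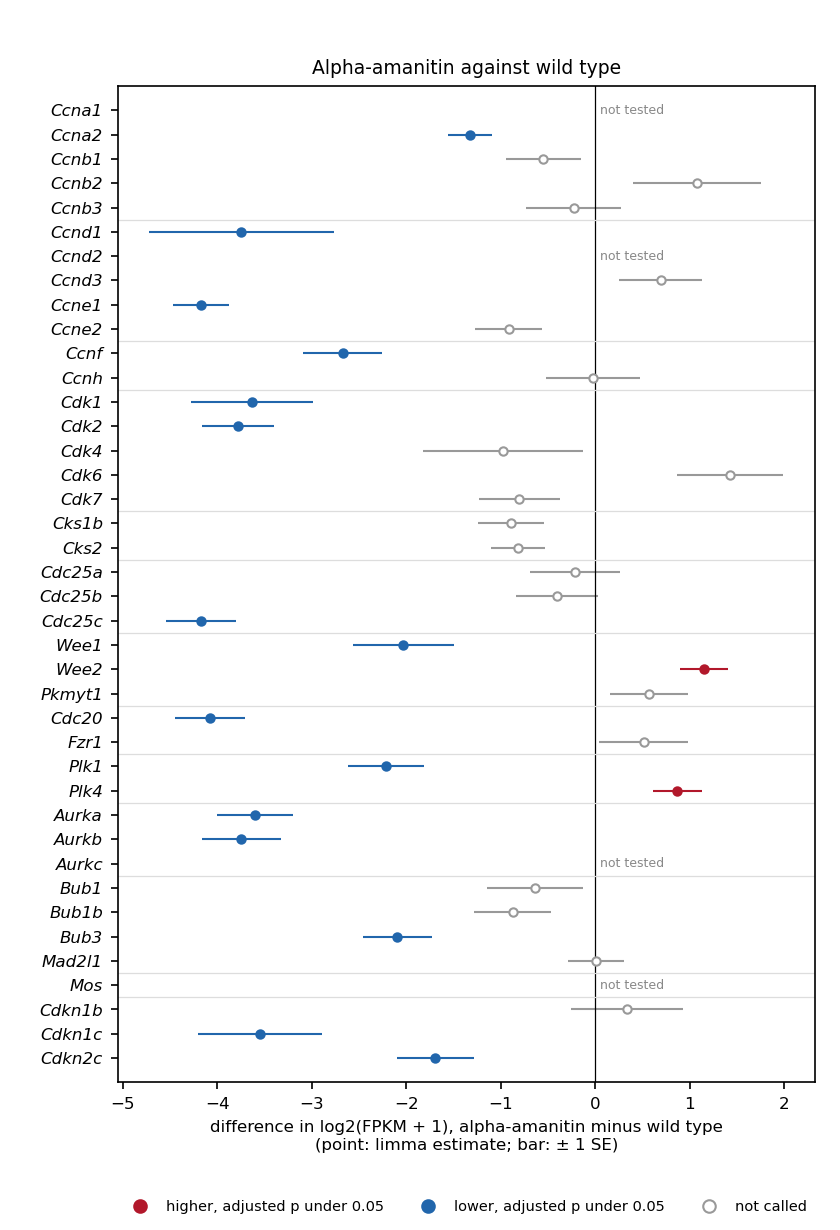
Log2 change with alpha-amanitin against wild type (horizontal axis, log2(FPKM + 1) units) for the 36 genes tested, with 1 SE on each side as bars and filled points for genes called. The 15 genes called lower run from Ccne1 and Cdc25c at -4.17 to Ccna2 at -1.33, and Wee2 at 1.16 and Plk4 at 0.87 are the 2 called higher.

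Of the APC/C activators, Cdc20, which drives anaphase, was at 1.41 and 0.658 FPKM with alpha-amanitin, 26.1 and 21.4 with Kdm5a+b morpholinos, 26.7 and 23.7 with mismatch controls, and 39.4, 22.4 and 39.7 in wild type. The libraries with the inhibitor lay far below all others (log2 change -4.08, SE 0.37, limma adjusted p = 2.27e-05). Elovl1, which overlaps Cdc20 in the genome, went the other way, with a mean of 11.6 FPKM with alpha-amanitin and 4.32 FPKM in wild type. Fzr1, the activator used after anaphase and in G1, was at 5.71 and 6.05 FPKM with alpha-amanitin, 2.21 and 1.81 with Kdm5a+b morpholinos, 9.30 and 10.4 with mismatch controls, and 6.92, 2.13 and 3.49 in wild type. Its alpha-amanitin values fell inside the wild-type range (log2 change 0.52, SE 0.47).

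Among spindle checkpoint genes, which hold Cdc20 back until chromosomes are attached, Bub3 fell and the others were not called. Bub3 was at 2.96 and 2.20 FPKM with alpha-amanitin, 10.9 and 12.9 with Kdm5a+b morpholinos, 13.1 and 8.39 with mismatch controls, and 17.3, 13.3 and 12.5 in wild type, with no overlap (log2 change -2.09, SE 0.37, limma adjusted p = 0.00174). Mad2l1, the most abundant of the 4, was at 40.4 and 59.7 FPKM with alpha-amanitin, 46.0 and 61.5 with Kdm5a+b morpholinos, 48.7 and 77.5 with mismatch controls, and 54.4, 45.7 and 47.0 in wild type. Its ranges overlapped throughout, with a log2 change of 0.01 (SE 0.30). Bub1 was at 4.87 and 20.2 FPKM with alpha-amanitin, against 13.3, 19.0 and 17.2 FPKM in wild type, so its alpha-amanitin replicates lay on either side, and its sign turned without replicate 1 (log2 change 0.29, against -0.64 with both). Bub1b was at 2.82 and 3.65 FPKM with alpha-amanitin, against 4.78, 7.18 and 8.70 FPKM in wild type (log2 change -0.87, SE 0.41, limma adjusted p = 0.138).

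The CDK inhibitors split as well. Cdkn1c (p57), an imprinted inhibitor of several CDKs, was at 0.0362 and 0.747 FPKM with alpha-amanitin, 19.5 and 20.6 with Kdm5a+b morpholinos, 33.6 and 8.92 with mismatch controls, and 6.98, 32.8 and 13.5 in wild type. Its level varied among the 7 libraries without the inhibitor, and all lay above both with it (log2 change -3.55, SE 0.66, limma adjusted p = 0.00234). Cdkn2c (p18), an inhibitor of Cdk4 and Cdk6, was at 0.363 and 0.358 FPKM with alpha-amanitin, 8.57 and 7.71 with Kdm5a+b morpholinos, 4.53 and 5.15 with mismatch controls, and 3.77, 2.96 and 3.48 in wild type. It fell with a log2 change of -1.69 (SE 0.41, limma adjusted p = 0.0105), and the call ended without alpha-amanitin replicate 1 (adjusted p = 0.0506) or replicate 2 (0.0530) and with quantile normalization (0.323). Cdkn1b (p27) was at 0.700 and 2.89 FPKM with alpha-amanitin, against 2.45, 0.341 and 0.834 FPKM in wild type, low and overlapping.

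Of the 36 genes tested, both alpha-amanitin libraries lay below all 3 wild-type libraries for 20 and above them for 3, Wee2, Plk4 and Cdk6. Over all genes tested the shares were 41.1% below and 13.4% above. For the other 13 genes the groups overlapped.

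The inhibitor changes the library as a whole, so the falls were also read after quantile normalization, which gives all libraries the same distribution. It moved the median log2 change of all genes to 0.17 and of the 36 genes to -0.10, and of all genes called in that fit 1806 were lower and 1716 higher. The 15 falls then ran from -3.37 to -0.57 in log2. Of these, 4 lost the call: Plk1 (-1.21, limma adjusted p = 0.0551), Bub3 (-1.12, 0.0523), Wee1 (-0.94, 0.214) and Cdkn2c (-0.57, 0.323). Plk4 also lost it (0.70, 0.0835), and Cdk6 gained one (2.30, 0.0117).

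Genes picked for a textbook role in meiosis or the oocyte were set beside the rest. These were Mos, Wee2, Aurkc, Cdc25b, Ccnb3, Ccna1 and Cks2. Only 4 of these 7 passed the filter. Wee2 was called higher, none was called lower, and Cdc25b, Ccnb3 and Cks2 were not called. Mos, the kinase that holds mouse eggs at metaphase II, was at 0.147 FPKM and listed at 0 with alpha-amanitin, at 0.602 and 0.111 FPKM with Kdm5a+b morpholinos, at 0.797 FPKM and listed at 0 with mismatch controls, and at 0.183, 0 and 0.484 FPKM in wild type. Its row stayed under 1 FPKM in every library, as did those of Ccna1 and Aurkc, the last of which has the higher-listed copy Gm12463. Of the other 33 genes, 32 were tested, 15 were called lower, Plk4 was called higher and 16 were not called. The median log2 change was -0.32 over the 4 meiotic genes tested and -0.95 over the 32 others, and the difference between the sets was not tested.

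Other genes of the same machinery were counted from lists chosen by function, beside the 25.1% of all genes tested that were called lower and the 4.31% called higher. The lists were chosen with earlier results of these data known, so their shares are no separate support. Of 25 tested genes of mitotic entry and exit, 14 (56%) were called lower and 1 (4%) higher. Fbxo5 (Emi1), an inhibitor of the APC/C, averaged 0.887 ± 0.0278 FPKM with alpha-amanitin and 52.9 ± 19.5 FPKM in wild type, and Ube2c, the APC/C's ubiquitin-conjugating enzyme, averaged 12.1 ± 4.60 FPKM with alpha-amanitin and 87.3 ± 10.9 FPKM in wild type (SD, n = 2 and n = 3). Arpp19, which blocks the phosphatase that opposes Cdk1, was the 1 called higher, at 64.6 ± 1.83 FPKM with alpha-amanitin and 33 ± 10.5 FPKM in wild type. Of 24 spindle checkpoint and kinetochore genes 9 (37.5%) were lower. Among them Mad2l1bp (p31comet), which takes the checkpoint complex apart, averaged 0.467 ± 0.229 FPKM with alpha-amanitin and 41.7 ± 7.87 FPKM in wild type, and the kinetochore scaffold Casc5 (Knl1) averaged 1.95 ± 0.906 FPKM with alpha-amanitin and 18.0 ± 3.72 FPKM in wild type. Of 13 APC/C subunits 4 (30.8%) were lower, a share near that of all genes, among them Cdc23 at 1.96 ± 1.11 FPKM with alpha-amanitin and 11.5 ± 3.93 FPKM in wild type, and the RING subunit Anapc11 at 0.303 ± 0.109 FPKM with alpha-amanitin and 5.35 ± 1.14 FPKM in wild type.

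Of 21 G1 and S regulators 5 (23.8%) were lower and 3 (14.3%) higher, against 25.1% and 4.31% of all genes. The repressor E2f7 was at 0.00445 and 0.282 FPKM with alpha-amanitin, against 20.0, 17.1 and 23.3 FPKM in wild type, and the inhibitor Cdkn2d (p19) averaged 2.10 ± 0.176 FPKM with alpha-amanitin and 22.3 ± 4.72 FPKM in wild type. The transcription factor E2f5 averaged 116 ± 6.81 FPKM with alpha-amanitin and 64.3 ± 9.49 FPKM in wild type, and Skp1a, a core subunit of SCF ubiquitin ligases, averaged 73.4 ± 23.6 FPKM with alpha-amanitin and 37.4 ± 6.55 FPKM in wild type. Both were called higher. Of 13 checkpoint kinases and their mediators 5 (38.5%) were lower, among them Chek2, which averaged 0.253 ± 0.116 FPKM with alpha-amanitin and 14.04 ± 3.52 FPKM in wild type, and Rad9a, at 1.27 ± 1.48 FPKM with alpha-amanitin and 7.33 ± 0.827 FPKM in wild type. Of 29 other cyclins and CDKs 11 (37.9%) were lower and 2 (6.90%) higher. Ccnt1, the cyclin of the elongation kinase P-TEFb, averaged 3.18 ± 2.15 FPKM with alpha-amanitin and 62.1 ± 10.3 FPKM in wild type. Mnat1, the partner of Ccnh and Cdk7, was listed at 0 with alpha-amanitin in both replicates, against 7.71, 11.3 and 7.40 FPKM in wild type. Cdk16 averaged 149 ± 22.8 FPKM with alpha-amanitin and 92.2 ± 13.5 FPKM in wild type, and Ccni averaged 32.95 ± 13.5 FPKM with alpha-amanitin and 14.2 ± 3.54 FPKM in wild type, both called higher. The median log2 changes of these lists ran from -1.30 for the checkpoint kinases to -0.31 for the G1 and S regulators, against -0.56 over all genes tested.

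The Kdm5a+b morpholino comparison asks whether morpholinos against these demethylases went with altered RNA of the same regulators. Whether the demethylases were depleted cannot be read from RNA levels. No gene of the 40 was called, and of all 13137 genes tested 0% were called (limma), 414 (3.15%) having an unadjusted p under 0.05. Log2 changes of the 36 genes ran from -1.85 to 1.45, with SEs of 0.26 to 1.07, around a median of -0.07 (0.00 over all genes). Fzr1 alone had an unadjusted p under 0.05. The Fzr1 values were 2.21 and 1.81 FPKM with Kdm5a+b morpholinos, against 9.30 and 10.4 FPKM with mismatch controls. The replicates of each group were close and the groups stood apart (log2 change -1.85, SE 0.52, limma adjusted p = 1, with 0.604 as the lowest adjusted p over the alternatives). Wild type spanned much of that gap with 6.92, 2.13 and 3.49 FPKM.

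At the other end, Ccnb2 was at 17.7 and 14.9 FPKM with Kdm5a+b morpholinos, against 3.99 and 7.02 FPKM with mismatch controls (log2 change 1.45, SE 0.74, limma adjusted p = 1). The groups did not overlap, and wild-type replicate 2 stood between them at 11.6 FPKM. How many of all genes separate in this way was not counted, which also bears on Fzr1 above and Cdkn2c below. Cdc25c made up 54.2% and 52.5% of the summed Cdc25 FPKM with Kdm5a+b morpholinos, against 74.0% and 72.8% with mismatch controls. Cdkn2c was at 8.57 and 7.71 FPKM with Kdm5a+b morpholinos, against 4.53 and 5.15 FPKM with mismatch controls (log2 change 0.65, SE 0.45). With no filter on low values 24 genes were called, 16 higher and 8 lower, and Ccnd2 was among those lower, at 0.00453 FPKM and listed at 0, against 0.608 and 0.693 FPKM with mismatch controls. Wild type also lay below the mismatch controls, at 0.0139, 0.0795 and 0.0637 FPKM, and all Ccnd2 values were under 1 FPKM.

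**Figure D5:**
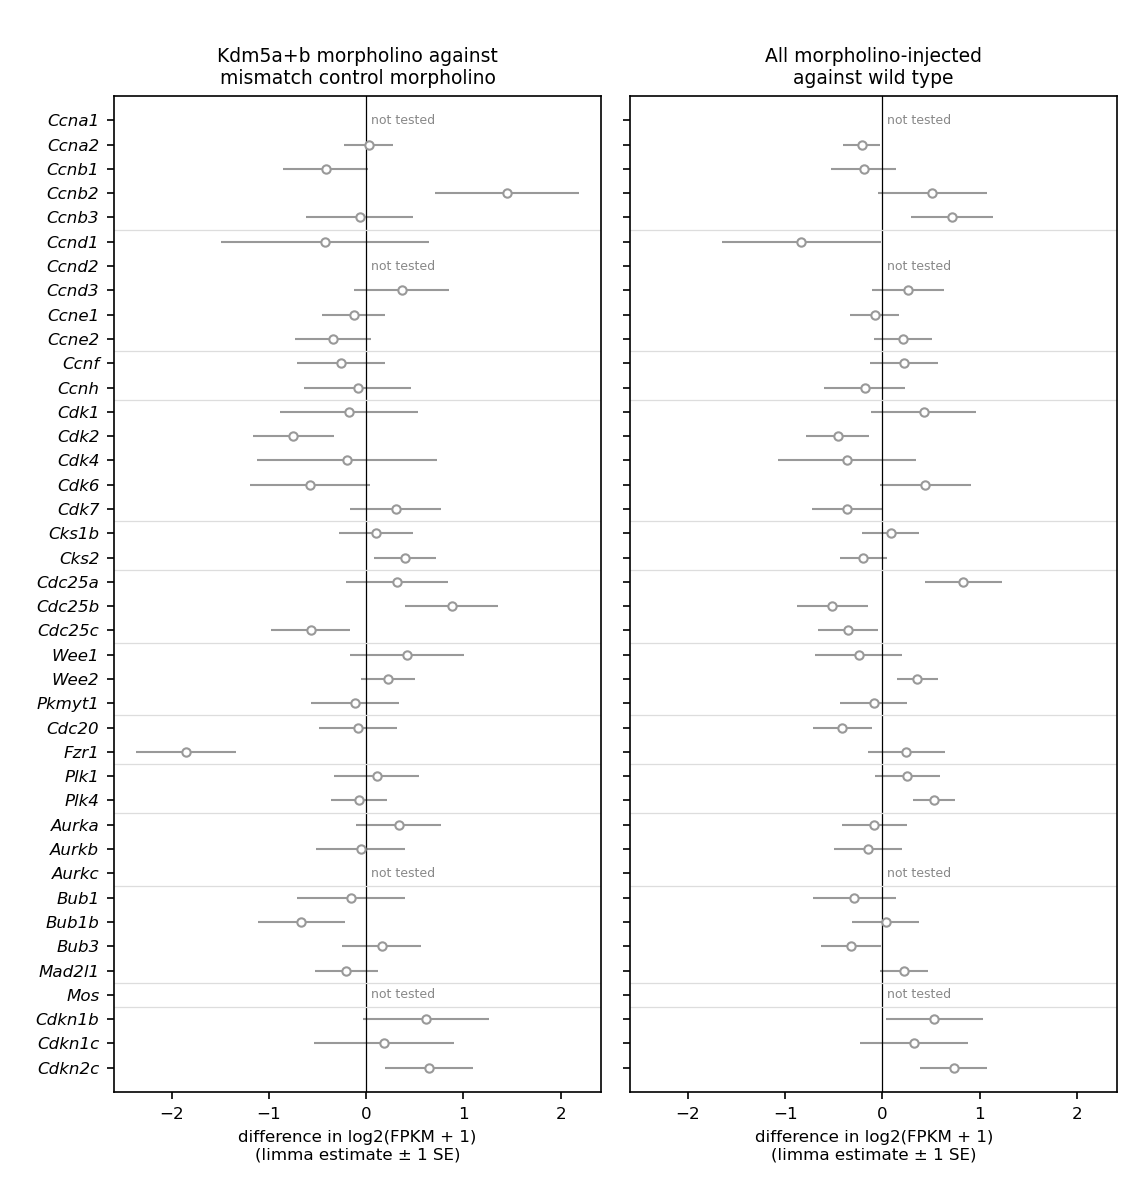
Log2 change (horizontal axis, log2(FPKM + 1) units, bars of 1 SE on each side) of the 36 genes tested with Kdm5a+b against mismatch control morpholinos, and in all morpholino-injected embryos against wild type. No gene was called in either comparison, and Fzr1 at -1.85 and Ccnb2 at 1.45 lie farthest out.

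Both morpholino-injected groups were also set together against wild type, a comparison that shares the wild-type libraries with the alpha-amanitin one. The injected side includes the Kdm5a+b morpholinos, so injection and these morpholinos cannot be told apart in it. Mismatch controls alone were not tested against wild type. Of all genes 0% were called (limma), with 903 (6.87%) at an unadjusted p under 0.05, and again none of the 36. The log2 changes ran from -0.84 to 0.83 with a median of -0.02. Plk4 alone had an unadjusted p under 0.05. Its 4 injected libraries lay between 95.7 and 134 FPKM, all above the 68.2 to 90.3 FPKM of wild type (log2 change 0.53, SE 0.22, limma adjusted p = 0.700). Cdkn2c likewise lay between 4.53 and 8.57 FPKM in injected embryos, above the 2.96 to 3.77 FPKM of wild type (log2 change 0.73, SE 0.34, limma adjusted p = 0.730). How many of all genes lie apart like Plk4 and Cdkn2c was not counted. The 15 genes that fell with alpha-amanitin had levels in the injected embryos that lay above both alpha-amanitin libraries in every case. They were called through low values in those same libraries, so this is no separate support. The matching share over all genes was not counted.

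Several rows may hold fragments of a neighbour, since no source used here says whether counting used the strand. In all, 15 of the 40 genes overlap another gene of the tables. Ccnd1 overlaps Oraov1, which averaged 0.414 FPKM with alpha-amanitin and 12.6 FPKM in wild type, and Wee1 overlaps RP24-272D15.1, which averaged 0.0224 FPKM with alpha-amanitin and 7.24 FPKM in wild type. Bub3 overlaps Fgfr2, with a mean of 4.24 FPKM with alpha-amanitin and 3.02 FPKM in wild type. For these genes the part of shared fragments in the result was not tested.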

How the data were processed

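RNA was extracted with an RNeasy Micro kit and sequenced from TruSeq libraries, per the labels' protocols. Per the file headers, each library has 1 table in which the authors deposited the FPKM of 32287 genes with its bounds, as Cufflinks writes it. Per the submitters' processing notes, which do not assign roles, the tools included BWA, Trimmomatic, Picard, SAMtools and Cufflinks, and the build was mm10. The RNA aligner, its settings, the annotation release and the use of strand are not stated in the sources used. Read depth is unknown.

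From these FPKM, log2(FPKM + 1) was tested with limma 3.58.1 in R 4.3.3 over 13137 genes at 1 FPKM or more in at least 2 of 9 libraries. Group was the only term, fitted to all 9 libraries (5 residual degrees of freedom), and eBayes used a trend on mean level. Tests were two-sided with Benjamini-Hochberg adjustment. Means ± SD are of FPKM. An exact 0 is described as listed at 0. Copies were found with BLAST 2.17.0 among GENCODE transcripts at 95% identity or more over at least 200 bases, and summed where they covered 30% of a transcript. Promoters are from RefSeq (GRCm38.p6). The 40 genes and all lists were chosen with earlier results of these data known. Genes called in a comparison and members of paralogue sets are given per library. From each list the 2 genes with the lowest adjusted p per direction were named. Alternatives are given at the end. Of 65 samples, those without RNA tables of late 2-cell embryos were not analysed here.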

Additional observations from a re-analysis of the deposited data

How the results depend on the processing

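The counts were recomputed under 18 alternatives, including another pseudocount, no filter on low values, quantile normalization, TPM, copies summed (chosen after seeing the data) and leaving out each library. The number of genes called lower with alpha-amanitin was 11 with quantile normalization and 13 to 16 otherwise. The number called higher, 2 in the reported fit, was 0 with no filter, 1 when only the libraries of the groups compared entered, 1 with eBayes without the trend, and 1 to 2 when 1 library was left out. No gene of the 40 was called in the morpholino comparisons under any of these alternatives, except that with no filter 1 (Ccnd2) was called with Kdm5a+b against mismatch morpholinos. With alpha-amanitin, 3299 of all genes were called lower and 566 higher in the reported fit, against 1806 to 3863 lower and 288 to 1716 higher under the alternatives. With Kdm5a+b against mismatch morpholinos 0 genes were called, against 24 with no filter and at most 3 without 1 library. Signs were compared only for genes called in the reported fit or in an alternative, and genes never called were not checked. Among those compared, signs turned for Ccnb1 (0.20 with quantile normalization, -1.15 to 0.057 when 1 library was left out), Bub1 (0.064 with quantile normalization, -1.57 to 0.29 when 1 library was left out) and Ccnb2 (-0.16 to 2.32 when 1 library was left out). None of these was called in the reported fit. Both ends of these ranges came from leaving out an alpha-amanitin library. Bub1 was called lower without alpha-amanitin replicate 2 (limma adjusted p = 0.0361), Cks1b without wild-type replicate 1 (0.0133) and Cks2 with no filter (0.0483). The causes were not tested. With the pseudocount of 0.1 the log2 changes of low genes grew, to -6.54 for Ccnd1, -6.29 for Cdc25c and -5.81 for Cdk2. With the replicate number as a block the counts were 15 lower and 2 higher, and 0 in both morpholino comparisons. Deviations of same-numbered libraries correlated at -0.05 to 0.04 over 12 pairs. In groups of 2 the deviations of the replicates mirror each other, so these pairs are not independent. The correlations cannot tell whether same-numbered libraries were collected together. With 2 or 3 libraries a group, smaller changes of genes at a few FPKM could not be resolved.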
